A study of Sus scrofa with 4 samples.

Results

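The spleens of normal (wild-type, WT) minipigs were described from 3 of the 4 one-colour arrays of the series, namely those whose titles name wild-type pig spleen. The labels give these samples as spleen tissue of wildtype Minnesota miniature swine, with no treatment, and the age and sex of the animals are not given in the sources used here. The remaining array, from an IL2RG knockout pig, entered no filter, scaling or comparison made here. The WT arrays are called WT 1, WT 2 and WT 3 after the replicate numbers in their titles. The design text counts them as separate experiments on WT spleen, the labels do not say whether each came from its own animal, and their spread may therefore hold biological and technical parts in unknown amounts. With a single group no test between groups was possible, so all values are descriptions of these 3 samples.

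The 3 WT spleen arrays shared a very bright set of ribosomal protein, ferritin and complement C1q genes, and differed widely in genes of blood cells. Granulocyte and platelet genes were mostly lowest on WT 1, intermediate on WT 2 and highest on WT 3, with a 943-fold range for the antimicrobial peptide gene NPG4. Erythroid genes were low on WT 1 only. T cell, natural killer (NK) cell, immunoglobulin and interferon response genes mostly ran the other way, highest on WT 1 relative to the other probes of each array. Scaling on added spike-in RNA instead moved all probes of WT 1 down together, to a median of -1.70 against the other arrays, so that lists with a smaller difference than this, T cell, NK cell and antiviral genes included, were no longer higher on WT 1. Secreted liver proteins such as albumin (ALB) and transthyretin (TTR) gave a high signal on WT 2 alone.

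The spleen filters blood. Its red pulp is a mesh of cords and sinuses in which macrophages take up aged erythrocytes and recycle their iron, and it holds a reserve of platelets and granulocytes. Its white pulp consists of lymphoid tissue around small arteries, with T cell zones and B cell follicles, and plasma cells lie in the cords. In young animals the red pulp can also be a site of blood cell formation. A piece of spleen therefore yields RNA of tissue cells together with RNA of whatever blood it retained, and in such bulk samples fewer cells of a type and less RNA per cell cannot be told apart.

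Levels are log2 processed signals minus the 75th percentile of the same array, so that a level of 0 is the 75th percentile and a difference of 1 is 2-fold. Between 66.1% and 72.7% of the 43803 spots were well above background, the share being lowest on WT 1, and no spot was saturated. A total of 27896 probes were well above background on all 3 arrays. The median standard deviation (SD) of these probes over the arrays was 0.285. The range of a probe, its highest minus its lowest array, reached 2-fold for 5745 probes (20.6%) and 4-fold for 1255 (4.5%), whereas 4909 (17.6%) had a range of at most 0.25 on the log2 scale and are called steady. Most of the large ranges involved WT 1. WT 2 and WT 3 differed 2-fold or more at 1249 probes, WT 1 and WT 2 at 3625, and WT 1 and WT 3 at 4511, which are also the counts left when WT 1, WT 3 or WT 2 is left out in turn. WT 2 and WT 3 shared a slide and WT 1 lay on the other one, so slide and sample cannot be told apart for WT 1, and the difference between WT 2 and WT 3 is the within-slide value throughout.

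The spread narrowed only slightly with brightness. With these probes in 4 brightness bins of 6974 each, the median SD was 0.329 in the dimmest bin and 0.243 in the brightest, whose share of steady probes was 23.9% against 11.9%. The share with a 4-fold range went the other way, from 3.28% in the dimmest bin to 5.62% in the brightest. For 21 probes printed at 5 spots each, the median SD among spots of an array lay between 0.0799 and 0.119, and the median SD of the same probes over the 3 arrays was 0.219. For 13 of these 21 the SD over arrays exceeded the spot SD of every array. Spots of an array share labelling, hybridisation and slide, whose parts in the difference between arrays were not tested.

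**Figure D1:**
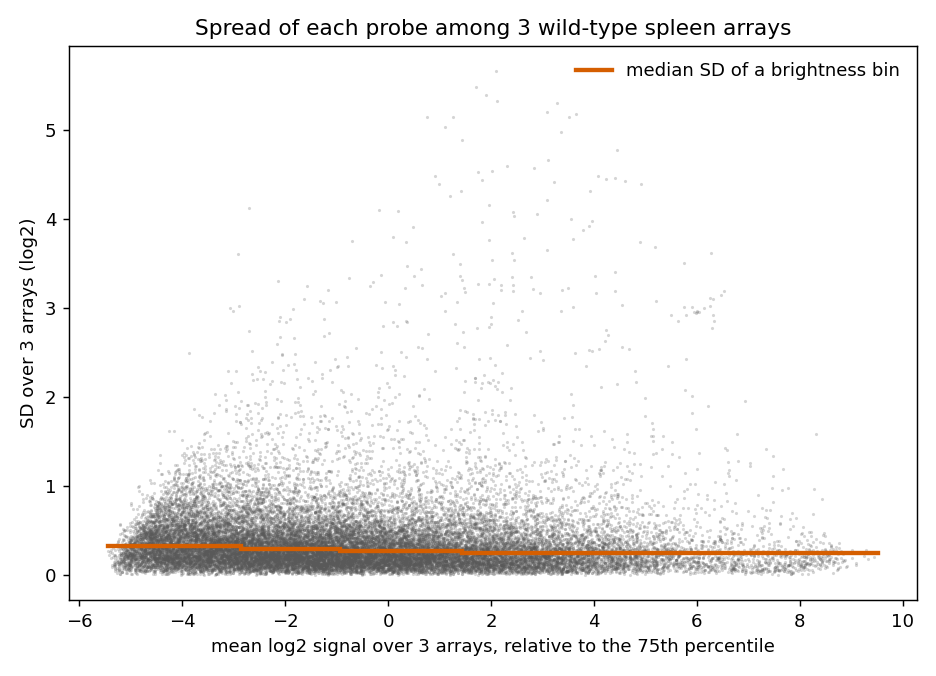
Each point is 1 of the 27896 measured probes, placed by its mean log2 signal relative to the 75th percentile (x axis) and its SD over WT 1, WT 2 and WT 3 (y axis, log2). The orange steps give the median SD of each brightness bin, from 0.329 to 0.243, and the points above them show that large SDs occurred at nearly every brightness.

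Genes were described through 6686 probes (15.3%) that could be paired with a gene symbol. They covered 3020 genes, of which 2447 had a probe well above background on all 3 arrays, and each gene is represented by the brightest such probe. Of these 2447 genes, 643 (26.3%) had a 2-fold range, 200 (8.17%) a 4-fold range, and 401 (16.4%) were steady. The filter removed genes that fell to background on a single array: of the 573 genes left out, 128 were well above background on both WT 2 and WT 3 but not on WT 1, compared with 14 on WT 1 alone. Some of the strongest differences are among them and are given below as bounds.

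Genes of cell types that spleen holds were present, and no list was made of genes particular to spleen. The 13 measured macrophage genes had a mean level of 2.88 on WT 1, 2.63 on WT 2 and 2.35 on WT 3. These means include VSIG4, at -0.88, 7.21 and 6.37 on 1 bright probe, whose low level on WT 1 lowers the mean there. The 9 class II genes of the major histocompatibility complex (MHC) had mean levels of 5.39, 5.03 and 4.54, and the 7 B cell genes 1.83, 0.89 and 1.27. The 7 smooth muscle genes, of the kind that serve the contractile capsule and trabeculae of this organ, had mean levels between 4.97 on WT 1 and 5.27 on WT 2. Among T cell genes, 14 of 15 with a named probe were measured on all arrays and FOXP3, the regulatory T cell factor, was well above background on 2 arrays. Of genes listed for neighbouring organs, 5 of 11 pancreas and 5 of 8 adipose genes with a named probe were well above background on all arrays. Both shares were below that of all genes with a named probe, 2447 of 3020. AMY2, a pancreatic amylase gene, gave 3.38, 4.29 and 2.73, and LIPE, the hormone-sensitive lipase, gave 2.45, 2.70 and 2.74. INS, GCG and SST of the pancreatic islets and PLIN1 of adipocytes were not well above background on any array.

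**Figure D2:**
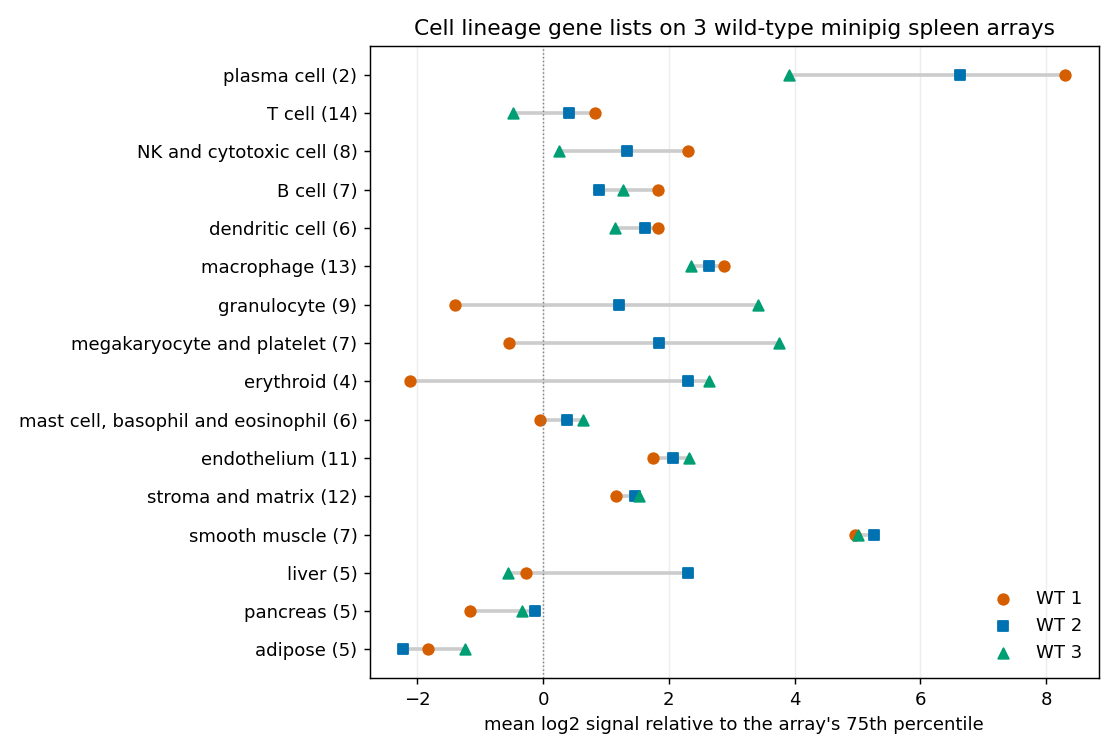
Mean log2 signal of the measured genes of 16 lineage lists (number of genes in parentheses), relative to the 75th percentile of each array (x axis), with 1 symbol for each of WT 1, WT 2 and WT 3. The granulocyte, megakaryocyte and platelet, and erythroid lists have WT 1 far to the left. The liver list has WT 2 apart, and the smooth muscle and stroma lists lie close together. The macrophage means also lie close, but include VSIG4 on 1 bright probe, at -0.88, 7.21 and 6.37.

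The 20 brightest named genes had mean levels between 8.26 and 9.52. On the probe shown all 20 had a range under 2-fold, the largest being 0.65 on the log2 scale. Signals of different probes do not rank RNA amounts, because each probe binds with its own strength, so this list describes signals only. It held 9 ribosomal protein genes, among them RPLP2, RPS3, RPS20, RPL32 and RPLP0, and further the translation genes TPT1 and EEF1A1, the actin-binding TMSB10 and the glycolytic GAPDH. RPS3, a protein of the small ribosomal subunit, gave 8.83, 8.69 and 8.72 on WT 1, WT 2 and WT 3. The ferritin chains, which store iron, were FTH1 at 9.03, 8.71 and 8.84 and FTL at 8.76, 8.52 and 8.42. C1QB, a chain of complement C1q made by macrophages, was 8.58, 8.16 and 8.03. By the limit given above, 6 of the 20 were steady, against 16.4% of all genes.

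Among the 20 brightest, 4 genes with more than 1 probe rested on a single bright probe. MUC13, a mucin of epithelia, gave 9.75, 9.27 and 9.53 on the probe shown, while its other 3 probes gave at most -3.95 on any array. CYP24A1, which inactivates vitamin D, gave 9.68, 9.32 and 9.31, against -0.20, 0.24 and 0.59 on its other probe. MUT, the mitochondrial methylmalonyl-CoA mutase, had a mean of 8.75 over the 3 arrays, against 0.16, 0.41 and 0.46 on its other probe. ITGB3, the platelet integrin beta 3, gave 9.53, 9.25 and 9.17 on the bright probe. Its other probe gave -0.19, 2.95 and 5.25, with the order of the 3 arrays seen in other platelet genes. For these 4 genes the bright probe cannot be taken as the level of the transcript. RPLP2, TMSB10, FTL and C1QB had 1 probe each, with no other to compare.

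Among the 1466 genes with a mean level of at least 0, the smallest ranges belonged to RACK1, AGPAT3, SLC25A6, RPL7, SCARB1, PRIM1, LACTB2, TGFB1, VDAC2 and CTNNB1. RACK1, a scaffold protein of the small ribosomal subunit, gave 7.58 on all 3 arrays. SLC25A6, a mitochondrial ADP/ATP carrier, gave 8.17, 8.15 and 8.17. TGFB1, the cytokine transforming growth factor beta 1, gave 2.81, 2.81 and 2.77, and CTNNB1, which encodes beta catenin, 4.84, 4.80 and 4.81. The small range belongs to the probe shown, since other probes ranged up to 0.99 for RACK1 and up to 2.03 for RPL7. These 10 were picked as the smallest of 1466, so their ranges say nothing of further samples.

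By function, the steadiest group was the 37 cytosolic ribosomal protein genes. Their median range was 0.22, 24 of 37 were steady against 16.4% of all genes, and 1, RPL11, reached 2-fold with 8.52, 8.20 and 7.46. The median difference of WT 1 from the mean of WT 2 and WT 3 was 0.17 for this list and -0.17 under quantile normalisation, so no direction is given. The 24 respiratory chain and ATP synthase genes had a median range of 0.30, with 10 steady and none at 2-fold, against 16.4% and 26.3% of all genes. The 7 smooth muscle genes also held none at 2-fold, and the 12 genes of stroma and matrix held 1, SPARC, a collagen-binding matrix protein, at 3.33, 5.07 and 4.60. Of 8 genes in common use as references, PPIA (cyclophilin A) gave 7.45, 7.48 and 7.27, and GAPDH 8.59, 8.37 and 7.96.

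**Figure D3:**
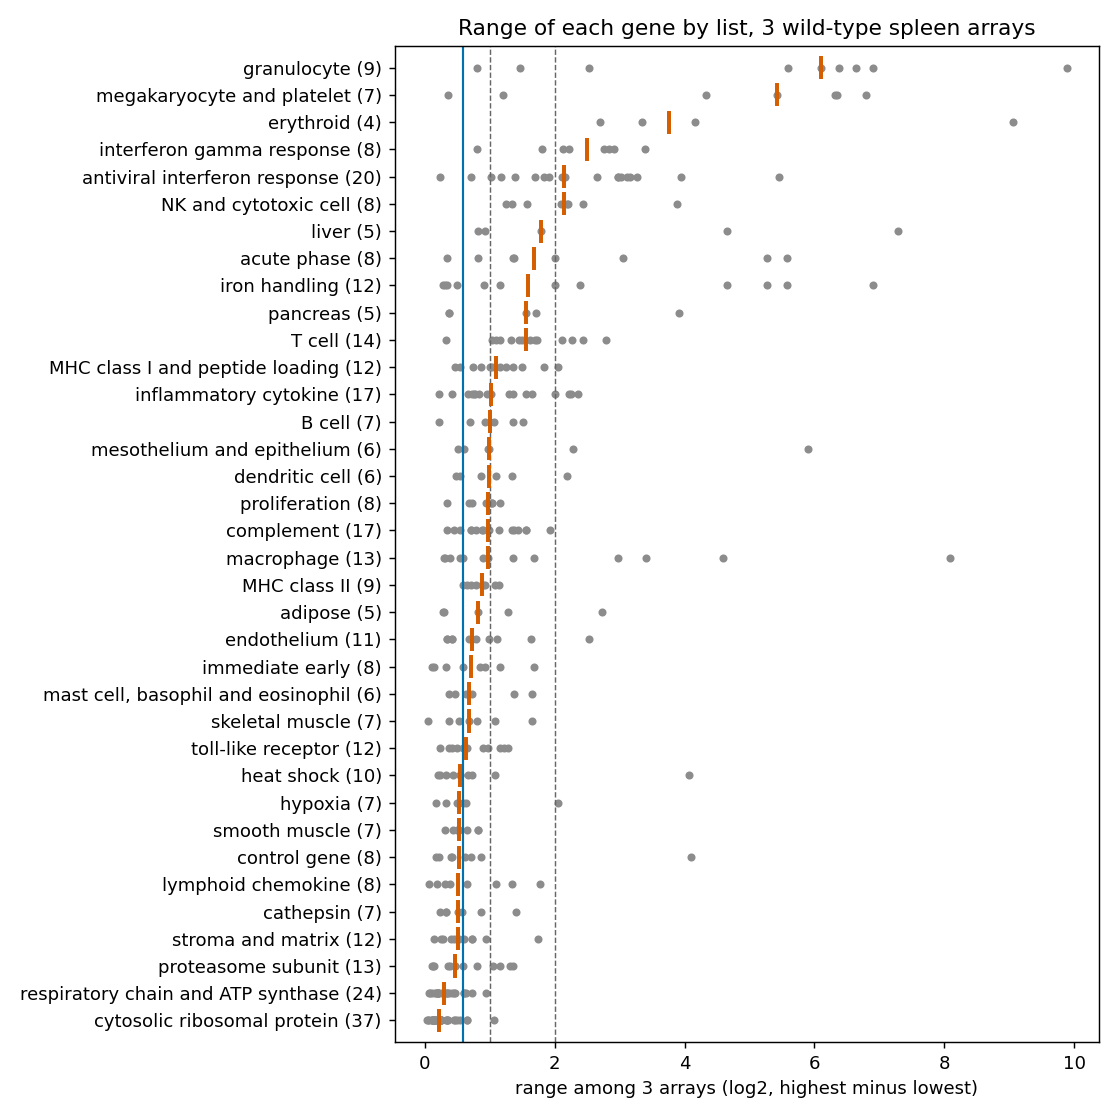
Range among the 3 WT arrays (x axis, log2, highest minus lowest) of each measured gene (grey points) in the 36 lists with at least 3 measured genes, whose number is in parentheses. Orange bars mark list medians, the blue line marks the median of all 2447 genes (0.59), and dashed lines mark 2-fold and 4-fold. The ribosomal list has the lowest median (0.22) and the granulocyte list the highest (6.10).

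Granulocyte genes varied most. Of 26 genes on the list, 12 had a named probe and 9 were well above background on all arrays. These 9 had a median range of 6.10, 8 of 9 reached 2-fold and 7 of 9 reached 4-fold, against 26.3% and 8.17% of all genes. In 7 of 9 WT 1 was lowest and WT 3 highest, an order that 17.1% of all genes had. NPG4, a protegrin of porcine neutrophils, gave -2.18, 5.42 and 7.70 on WT 1, WT 2 and WT 3, and its other 2 probes gave the same order. LTF, the iron-binding lactoferrin of neutrophil granules, gave -2.36, 2.03 and 4.55. PMAP-23, a myeloid antimicrobial peptide, gave -2.18, 1.93 and 4.47. In these 3 genes every step from one array to the next was larger than 4-fold.

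The calgranulins, calcium-binding proteins abundant in neutrophils and monocytes, had the same order. S100A8 gave -1.17, 2.53 and 5.21, an 83.0-fold range. S100A9 gave -2.58, 0.09 and 3.01, and S100A12 gave -1.14, 2.27 and 4.96. WT 3 exceeded WT 2 on the same slide by 2-fold or more in 8 of the 9 granulocyte genes, compared with 2.66% of all genes, so this difference was also present within a slide. The antimicrobial peptide gene PR39 was not well above background on WT 1 and gave 2.35 on WT 2 and 5.10 on WT 3. The signal on WT 3 was at least 1502-fold higher than on WT 1, taking for WT 1 the higher of its own signal and the dimmest signal there that still passed as well above background. By the same bound PMAP-36 was at least 555-fold higher on WT 3 than on WT 1.

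LCN2, the siderophore-binding lipocalin 2, differed less, at -2.97, -2.91 and -1.51. The other 2 measured granulocyte genes did not have this order. MMP9, a gelatinase stored in neutrophil granules, gave 1.00, 0.20 and 0.58, with a range under 2-fold. DEFB1, a beta defensin also made by epithelia, gave 1.02, -0.69 and 1.84. RETN, which encodes resistin and was not on the list, was among the 10 genes of largest range, at -4.79, 0.10 and 2.58.

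Megakaryocyte and platelet genes followed the granulocyte order. Their 7 measured genes had a median range of 5.42 and 5 of 7 reached 4-fold, against 8.17% of all genes. In 6 of 7 WT 1 was lowest and WT 3 highest, against 17.1% of all genes. The exception was ITGB3 on the bright probe described above. PPBP, the platelet basic protein, gave -3.06, 1.27 and 3.73, a 110-fold range. SELP, the P-selectin of platelet granules and endothelium, gave -1.89, 1.94 and 4.42. GP1BB, a chain of the von Willebrand factor receptor, gave -3.18, 1.02 and 3.16. WT 3 exceeded WT 2 by 2-fold or more in 5 of 7, against 2.66% of all genes. GP9, a further chain of that receptor, differed least of the 6, at 0.05, 0.55 and 1.26. VWF itself, listed with endothelium, gave 1.96, 2.86 and 4.49.

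The erythroid list behaved differently, with WT 2 and WT 3 close together and WT 1 below both. Of 25 genes on the list 4 had a named probe, and all 4 were measured. All 4 reached a 4-fold range, against 8.17% of all genes. In all 4 WT 1 was at least 2-fold below both other arrays, compared with 6.66% of all genes. KLF1, the transcription factor that drives globin genes, gave -4.68, 4.06 and 4.38, and its second probe gave -7.74, -0.57 and 0.04. HBE1, an epsilon globin, gave -1.36, 2.80 and 2.53. EPOR, the erythropoietin receptor, gave 0.24, 2.67 and 3.59. TFRC, the transferrin receptor, gave -2.65, -0.32 and 0.05. None of the 4 differed 2-fold between WT 2 and WT 3, and nor did most genes. Of all genes 2.66% had WT 3 at least 2-fold above WT 2, and 4.66% had the reverse. RHCE, a Rh blood group protein of the erythrocyte membrane and not on the list, gave -3.22, 4.58 and 4.69. In 5 of the 8 proliferation genes WT 1 was lowest and WT 3 highest, against 17.1% of all genes. TOP2A, a topoisomerase of dividing cells, gave 1.84, 2.67 and 2.79. AURKB, a kinase of mitosis, was highest on WT 1 on the probe shown, at 3.63, 2.94 and 3.27. Its other probes were lowest on WT 1, at -0.26, 0.79 and 0.64 and at 1.65, 3.00 and 2.63. The median difference of WT 1 was -0.93 for the 8 proliferation genes. Of these 4 had a 2-fold range and none a 4-fold range, against 26.3% and 8.17% of all genes.

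**Figure D4:**
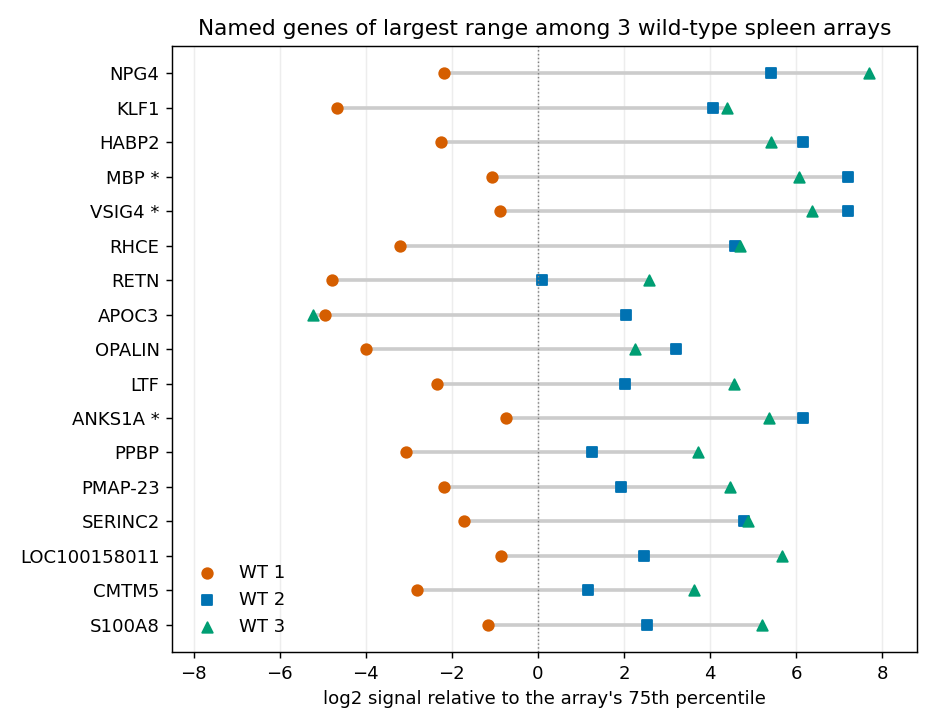
Log2 signal relative to the 75th percentile (x axis) on WT 1, WT 2 and WT 3 for the 17 named genes of largest range, ordered by range, with a grey line from lowest to highest. Asterisks mark genes with another probe well above background on all arrays and a range under 2-fold. WT 1 is lowest in every gene but APOC3, and the granulocyte and platelet genes have WT 2 between WT 1 and WT 3.

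Several of the most variable genes rested on 1 bright probe. VSIG4, a complement receptor of tissue macrophages, gave -0.88, 7.21 and 6.37, while its other 4 probes lay between -5.97 and -2.07. MBP, known as myelin basic protein, gave -1.06, 7.21 and 6.08, while its other 7 probes lay between -4.62 and -1.39 with no such step. ANKS1A gave -0.73, 6.15 and 5.37 on 1 probe and -3.03, -4.01 and -3.53 on the other. HABP2, a serine protease of plasma, gave -2.25, 6.17 and 5.43, and OPALIN, known from oligodendrocytes, -3.99, 3.21 and 2.26. The other probe of HABP2 was dimmer but had the same order, at -6.61, -2.80 and -5.46, and that of OPALIN was at -7.41 or below on all arrays. Among the 91 genes with a 4-fold range and more than 1 measured probe, 75 reached 2-fold on every probe and 16 did not, and 109 further genes with a 4-fold range had only 1 measured probe. SERINC2 (-1.72, 4.78 and 4.88) and SPINK4 (-1.63, 4.51 and 4.49) had a single probe each, with WT 2 and WT 3 close together.

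Immunoglobulin and plasma cell genes had the opposite direction. Both measured genes of the list, of 16 on it, were highest on WT 1 and lowest on WT 3, an order that 32.8% of all genes had. LOC396781, an immunoglobulin heavy chain gene, gave 9.06, 7.58 and 2.94, and all of its 13 probes were well above background on every array with the same order. XBP1, the factor of the secretory programme of plasma cells, gave 7.56, 5.68 and 4.90. LOC100152327 gave 7.69, 4.27 and 1.65, and PDIA4, a disulphide isomerase of the endoplasmic reticulum, gave 5.96, 3.89 and 2.76. XBP1, LOC100152327 and PDIA4 were among the 10 genes chosen for lying farthest above both other arrays on WT 1, so their direction was fixed by that choice. B cell genes proper spread less than these. MS4A1, which encodes CD20, gave 1.38, 0.38 and 1.00, and CD79A, a chain of the B cell receptor complex, gave 0.80, -0.02 and -0.13. Of the 7 B cell genes 3 reached 2-fold and none 4-fold, against 26.3% and 8.17% of all genes. Their median range was 1.00, compared with 0.59 for all genes. Their median difference of WT 1 from the other arrays was 0.69. It was -1.05 when arrays were scaled on the spike-in RNA that is added to each sample before labelling.

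T cell genes were mostly lowest on WT 3. In 11 of 14 WT 3 was lowest, against 42.4% of all genes, and in 9 of 14 WT 2 exceeded WT 3 by 2-fold or more, against 4.66% of all genes. CD3E, a chain of the T cell receptor complex, gave 2.42, 3.38 and 1.65, and LCK, its kinase, gave 2.96, 3.50 and 1.88, so WT 2 was highest in both. ICOS, a costimulator of activated T cells, gave 2.58, 0.85 and -0.21, and CD8A, the coreceptor of cytotoxic T cells, 1.74, 0.36 and -0.70, with WT 1 highest. The list's median difference of WT 1 from the mean of the other arrays was 0.79, and -0.94 with spike-in scaling.

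All 8 measured NK and cytotoxic genes reached 2-fold and 5 of 8 reached 4-fold, against 26.3% and 8.17% of all genes. GZMB, the granzyme B protease of killer granules, gave 2.11, -0.10 and -0.08, and GZMH gave 1.65, -0.27 and -0.45. GZMK gave 0.96, -0.56 and -2.93, so that here WT 2 and WT 3 differed too. GZMA was not well above background on WT 3, and its signal on WT 1 was at least 20.1-fold higher there than on WT 3. The median difference of WT 1 from the other arrays was 1.39, and -0.35 with spike-in scaling.

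Interferon response genes showed the same order with little exception. Of the 20 measured antiviral genes, 18 reached 2-fold and 12 reached 4-fold, against 26.3% and 8.17% of all genes. In 18 WT 1 was highest and WT 3 lowest, against 32.8%. MX1, a GTPase that blocks viruses, gave 7.63, 5.98 and 4.36, and ISG15, a ubiquitin-like modifier, 6.65, 5.24 and 3.54. OASL, of the oligoadenylate synthetase family, gave 3.00, -0.82 and -2.46, a 44.0-fold range. RSAD2, an antiviral enzyme also called viperin, gave 2.28, -0.24 and -1.66, and IFIT3 gave 2.60, 0.16 and -0.56. In 9 of the 20 WT 2 also exceeded WT 3 by 2-fold or more, against 4.66% of all genes. IFIT1 at 3.71, 4.72 and 3.76 and BST2 at 2.50, 2.52 and 2.28 did not have the order of the others. The list's median difference of WT 1 from WT 2 and WT 3 was 1.69, and -0.04 with spike-in scaling, so the higher level on WT 1 is relative to the other probes of the array.

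The 8 genes of the interferon gamma response were ordered alike. In 7 of 8 WT 1 was at least 2-fold above both others, against 6.17% of all genes, and 7 of 8 had WT 3 lowest, against 42.4%. CXCL9, a chemokine that attracts T cells, gave 3.35, 1.70 and -0.05, and CXCL10 gave 5.51, 3.90 and 2.60. IFNG itself was dim, at -1.80, -3.35 and -4.63. Their median difference was 1.97, and 0.24 with spike-in scaling. Genes of MHC class I and peptide loading had smaller steps in the same order. Of these 11 of 12 fell in the order WT 1, WT 2 and WT 3, against 32.8% of all genes. B2M, the light chain of class I, gave 8.71, 8.11 and 7.84, and the peptide transporter TAP1 gave 3.05, 1.28 and 1.21. In class II, 8 of 9 had this order, against the same 32.8%. The largest range was 1.15, that of SLA-DRA, at 8.20, 7.59 and 7.05. The median difference of WT 1 was 0.88 for class I and 0.55 for class II, and with spike-in scaling -0.86 and -1.18.

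**Figure D5:**
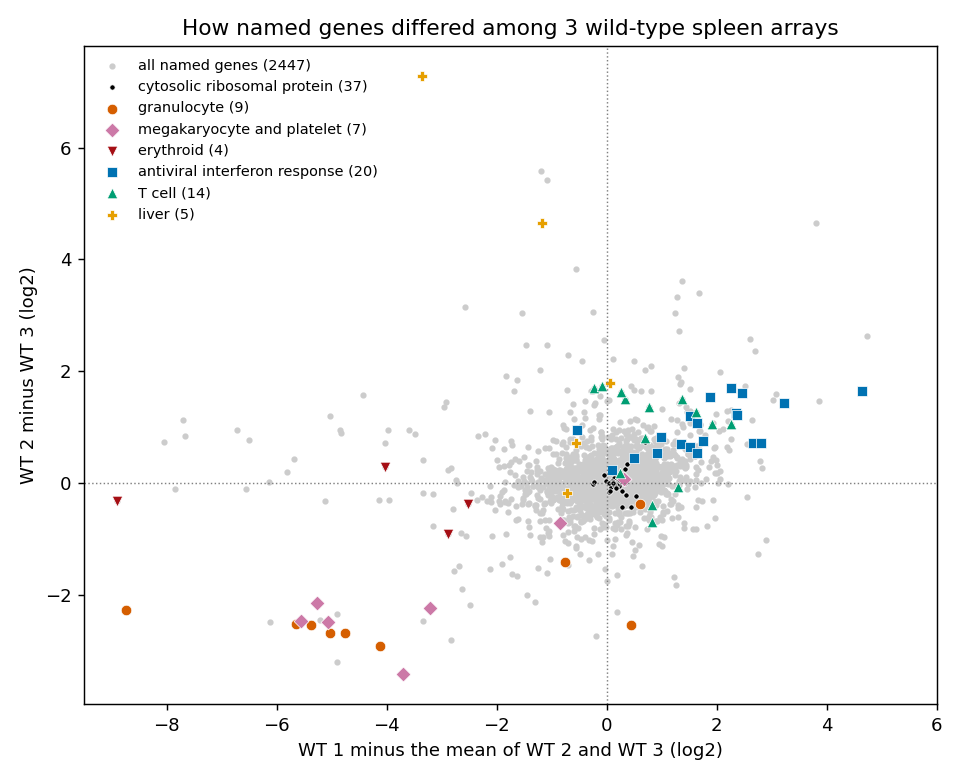
Each point is 1 of the 2447 named genes, placed by WT 1 minus the mean of WT 2 and WT 3 (x axis, log2) and by WT 2 minus WT 3, the within-slide difference (y axis, log2), with genes of 7 lists coloured. Granulocyte and platelet genes lie mostly at lower left, erythroid genes at the left near 0, antiviral genes at upper right, 2 liver genes at the top, and ribosomal genes near the origin.

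Among the 13 macrophage genes, CD163 and VSIG4 were lowest on WT 1, and the others were highest there by widely differing amounts. In 7 of 13 WT 1 was highest and WT 3 lowest, against 32.8% of all genes. The C1q chains differed by less than 2-fold, C1QA giving 7.45, 6.48 and 6.66 and C1QC 7.01, 6.22 and 6.11. CD163, the haemoglobin scavenger receptor of red pulp macrophages, gave 3.46, 4.82 and 4.66. CD5L, a secreted macrophage protein, gave 8.02, 4.89 and 3.43 and had the same order on all 4 probes. SIGLEC1, the sialic acid receptor of marginal macrophages, gave -0.54, -3.95 and -2.92, and FCGR1A, a high-affinity antibody receptor, -2.41, -4.99 and -5.38. Both were more than 4-fold higher on WT 1. MRC1, the mannose receptor, gave -1.51, -1.56 and -1.82. The median range of the 13 genes was 0.97. A 4-fold range was reached by 4 of 13, VSIG4 on the single probe above included, against 8.17% of all genes.

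Genes of iron handling were split. The ferritins and HMOX1, the haem oxygenase that frees iron from haem, were close among the arrays on the probes shown. HMOX1 gave 7.97, 7.73 and 7.47. Other probes of FTH1 ranged up to 2.38, and FTL had 1 probe only. HP, haptoglobin, which binds free haemoglobin, gave -1.22, 4.04 and 3.16, and all 5 of its probes were lowest on WT 1. SLC11A1, an iron transporter of phagosomes, gave 3.11, 4.27 and 4.05. HAMP, the iron hormone hepcidin, gave -3.33, -1.19 and -0.94.

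A set of plasma proteins made by liver stood out on WT 2. Of 13 liver genes, 9 had a named probe and 5 were well above background on all arrays, with a summed signal of 11.6, 32.9 and 16.5 times the 75th percentile on WT 1, WT 2 and WT 3. ALB gave -6.42, 2.60 and -5.05 on its brightest probe, and all 19 of its probes were highest on WT 2. Its signal on WT 2 was 202-fold that on WT 3 and at least 266-fold higher than on WT 1, where the probe was not well above background. TTR, the carrier of thyroid hormone, was well above background on WT 2 only, at 2.37, at least 226-fold higher than on WT 1 and at least 274-fold higher than on WT 3. These 2 defining liver genes were thus at or near background on WT 1 and WT 3.

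Further liver genes had the same pattern. APOC3, an apolipoprotein, gave -4.94, 2.05 and -5.23, and its second probe -5.23, 0.36 and -4.14. TF, transferrin, gave -0.02, 3.48 and -1.17, and HPX, the haem carrier haemopexin, -2.03, 1.95 and -3.64. SERPINA1, the antitrypsin of plasma, gave -7.51, 0.13 and -4.64. The terminal complement genes C8A, C8B and C9 were well above background on WT 2 alone, at -1.40, -3.44 and -3.72. Of the 2447 genes, 34 (1.39%) had WT 2 at least 2-fold above both other arrays, and 2 of the 5 measured liver genes, APOC3 and TF, were among them. APOA1, at 2.80, 3.44 and 3.62, and APOA2, at 1.58, 2.50 and 1.78, were not. The median difference of WT 1 from the others was -0.73 for the 5 measured liver genes and -2.93 when genes measured on at least 1 array were added. Whether liver-type RNA on WT 2 took part in its other differences from WT 1 and WT 3 was not tested.

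Within the slide shared by WT 2 and WT 3, the 10 largest differences among genes with a mean level of at least 0 included plasma protein, immunoglobulin and calgranulin genes. MT1A, a metallothionein that binds zinc and copper, gave 1.23, 5.03 and -0.40 and had a second probe at 1.07, 4.77 and -0.65. TF and ITIH1, an inhibitor chain of plasma at 1.53, 1.80 and -1.24, were higher on WT 2, as was ANPEP, an aminopeptidase, at 1.48, 2.82 and 0.25. LOC396781 and LOC100152327 were also higher on WT 2. S100A8, S100A9, S100A12 and LOC100158011 (-0.85, 2.46 and 5.67) were higher on WT 3. These genes differed by 5.92-fold or more between 2 WT arrays on 1 slide.

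Among genes with a mean level of at least 0, those with WT 1 farthest above both other arrays were LOC100152327, CD5L, PET100, RSAD2, IFIT3, TNFSF10, GZMB, PDIA4, GZMH and XBP1. TNFSF10, the death ligand TRAIL, gave 3.16, 0.96 and 0.26. PET100, a factor for assembly of cytochrome oxidase, gave 7.04, 4.35 and 4.07 on 1 probe and 2.64, 2.48 and 2.55 on the other, so its step was not shared by its probes. Those with WT 1 farthest below both were KLF1, RHCE, HABP2, NPG4, VSIG4, MBP, SERINC2, OPALIN, SPINK4 and ANKS1A, described above.

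The remaining lists spread less than the granulocyte, platelet and erythroid lists. Median ranges were between 0.47 and 1.03 for the proteasome, cathepsin, lymphoid chemokine, hypoxia, heat shock, toll-like receptor, skeletal muscle, mast cell, immediate early, endothelium, adipose, complement, dendritic cell, mesothelium and inflammatory cytokine lists, compared with 0.59 for all genes. Some members stood apart. HSP70.2, an inducible heat shock protein, gave -0.32, 3.74 and 2.80. Of the 10 heat shock genes 2 reached 2-fold, against 26.3% of all genes. LGALS7, a galectin of epithelia, gave -4.09, 1.81 and 1.38, and KRT8, a keratin of simple epithelia, 0.16, 1.53 and 2.45. PDK1, a kinase that restrains pyruvate oxidation, gave 2.35, 0.48 and 0.29. The acute phase list, with a median range of 1.69, drew its 4-fold members CP, HP, HPX and ITIH4 partly from genes named above. FOS, an early gene of cell activation, was even at -2.83, -2.84 and -2.95. Of the 11 pancreas genes with a named probe 5 were measured, with a median range of 1.56, and CLPS, the colipase of pancreatic juice, gave -3.19, 0.72 and -0.15.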

How the data were processed

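Spleen RNA was hybridised to 1-colour Agilent Porcine V2 arrays with Cy3 label. Per the labels and file headers, the deposited files hold scanner intensity values extracted with Agilent Feature Extraction 11.0.1.1, which subtracted background to give the processed signal. The study's methods also name a Cy5 control channel, but each file holds 1 channel. The authors also deposited a table of log2 values of all arrays. Its steps are not given in the sources used here, but its WT columns hold the same distribution of values, as after quantile normalisation, with a median of 8.62 each and no centring on 0. It served as an alternative only. Its 3 WT columns were used for 27409 probes.

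Control spots and 32 spots marked as non-uniform or population outliers on any array were left out, which removed 20 probes. Processed intensity was scaled to the 75th percentile of each array and log2 transformed, and the spots of a probe were averaged. A probe counted as well above background when the file said so for at least 0.5 of its spots. Probes were named by RefSeq transcript (without version) through a table of assembly Sscrofa11.1, used for names only. Genes were represented by their brightest probe well above background on all 3 arrays. The number of arrays, 3, limits the precision. Named were the 20 brightest genes, the 15 (mean level of at least 0) and 10 (any level) of largest range, and, at a mean level of at least 0, the 10 of smallest range, the 10 that differed most between WT 2 and WT 3, the 10 with WT 1 farthest above and the 10 with WT 1 farthest below both others, and members of 38 lists. Members and lists were chosen with earlier results of these data known. No probe sequences were used here.

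Alternatives were quantile normalisation, a median shift, a 75th percentile over measured probes, normexp with an offset of 50 in limma 3.58.1, other filters, marked spots kept, the deposited table, the mean over a gene's probes, and leaving out each array. Normexp used median spot signals, since the files hold no mean signal. Spike-in scaling was chosen after seeing the data. Scripts ran in Python 3.11.15 (pandas 2.3.3, numpy 2.4.6) and R 4.3.3, and were tested on simulated data.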

Additional observations from a re-analysis of the deposited data

Results flagged for a closer look

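The spike-in probes lie outside the measurement of pig genes. E1A spike-ins are viral RNAs that Agilent kits add to each sample before labelling. Of 10 such probes, 6 were well above background on all 3 WT arrays. Relative to the 75th percentile, WT 1 stood above the mean of WT 2 and WT 3 on these probes by a median of 1.70, with a lowest value of 1.40 and a highest of 1.98. WT 2 minus WT 3 lay between -0.19 and -0.08, and the negative controls had a mean of at most -7.62. WT 1 also had the lowest 75th percentile of signal, 640 against 816 and 820. The part of RNA input, labelling or slide in this difference was not tested.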

How the results depend on the processing

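With 1 group of 3 arrays, counts of probes depended on scaling, background correction and filter. The number of probes with a 2-fold range was 5745, against 3334 with normexp, 9673 with probes well above background on at least 1 array, 13974 with no filter, 26118 with spike-in scaling, and 1249 to 4511 with each array left out in turn. For a 4-fold range, 1255 probes became 785, 3300, 3746, 10931 and 224 to 1007 under the same settings. Steady probes numbered 4909, and 7774 with normexp, 58 with spike-in scaling and 8817 to 15866 with an array left out, where a range over 2 arrays is smaller by construction. The median SD of 0.285 became 1.00 with spike-in scaling and 0.149 to 0.297 with an array left out. The cause of the other changes was not tested. Among 432 values of the median difference of WT 1 over lists and settings, 390 moved by less than the spread, and the rest moved more. The sign changed with spike-in scaling for 20 of 36 lists, all among the 21 in which WT 1 had been higher, with the interferon gamma list the exception among those 21, and for 0 to 3 lists under each other setting. Of differences that were at least 1 in size, the NK and cytotoxic list changed sign, to -0.35, as did the antiviral interferon list, to -0.040. Spike-in scaling shifted the median of all probes on WT 1 against the other arrays to -1.70, from 0.031, and the median shift gave 0.173. For the granulocyte, platelet and erythroid lists this difference was below 0 under all 12 alternatives that hold WT 1. No paired analysis was possible because the group has no partner group and no test was run. Probes below background on an array have only a bound there.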
